A study of Mus musculus with 2 samples.

Results

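A set of 10 genes that astrocytes and astrocyte-like stem cells use for transport and metabolism was followed in single neural stem/progenitor cells (NSPCs): *Slc1a3*, *Slc1a2*, *Glul*, *Slc4a4*, *Car2*, *Gja1*, *Aqp4*, *Mlc1*, *Acsbg1* and *Apoe*. They were chosen by name, with earlier results of the same cells in view, and all 10 of the 10 were found among the 15046 genes of the count table. The cells were cultured NSPCs from the subventricular zone (SVZ) of 6 to 8 week old C57/Bl6 male mice, pooled over animals, passaged at least 5 times and kept proliferating. Every cell, in both categories, belonged to a single stable line that carries a retroviral PLIN2-GFP fusion. PLIN2 coats lipid droplets (LDs), and GFP brightness serves as a readout of LDs. The 25% of cells with the weakest GFP signal (low PLIN2-GFP NSPCs) and the 25% with the strongest (high PLIN2-GFP NSPCs) went into 2 plates of 384 wells for SORT-seq, in which each well has a barcode and each captured mRNA a unique molecular identifier (UMI). No cell without the construct and no other line was analysed here.

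Radial glia-like stem cells of the adult SVZ share much of their gene expression with astrocytes. Astroglia clear glutamate from the extracellular space with the transporters encoded by *Slc1a3* (GLAST) and *Slc1a2* (GLT-1), and the product of *Glul*, glutamine synthetase, converts it to glutamine. Bicarbonate cotransport by the *Slc4a4* product and carbonic anhydrase 2, encoded by *Car2*, buffer pH, connexin 43 (*Gja1*) forms gap junctions and aquaporin 4 (*Aqp4*) carries water at astrocytic endfeet, where the membrane protein encoded by *Mlc1* also lies. *Acsbg1* encodes an acyl-CoA synthetase that activates fatty acids, and *Apoe* encodes apolipoprotein E, a carrier of lipids and cholesterol that astrocytes secrete.

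The 304 cells that passed the study's filters lay on plate 1 (95 low, 84 high) and plate 2 (72 low, 53 high). The sums of cells per plate and category held 778022 to 1029023 UMIs, and the median cell held 7856 (low) and 11709 (high) UMIs on plate 1 and 11955 and 14729 on plate 2. Low and high cells lay in separate rows of wells (0 of 16 rows held both), so a difference between categories and one between rows cannot be told apart. The plates share 59 well barcodes, since the same primers are used on every plate, and 11 cells exceed the mitochondrial limit of 20% that the study states. *Vim* was counted in 100.0%, *Fabp7* in 99.3% and *Nes* in 71.1% of cells, and the glial lineage factors *Olig1* and *Olig2* in 100.0% and 98.7%. Of the 5 neuronal markers in the table, *Map2* was found in 91.4%, *Dlg4* in 26.0%, *Rbfox3* in 5.92% and the synaptic genes *Syt1* and *Snap25* each in 0.987% of cells. The endothelial gene *Pecam1* was found in 0.658%, and ependymal markers in 1.32% to 13.5% (*Foxj1*), while microglial markers were not analysed here. The cells are therefore called NSPCs after their label, and not astrocytes.

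*Slc1a3*, *Acsbg1* and *Apoe* are shown with the 250 bases before the transcription start in RefSeq (GRCm38.p6), because they were lower in both S and G2/M than in G1 phase, as described below, and their windows overlap no annotated gene. The windows were searched on both strands for 4 sets of letters: ACAAAG (the core bound by SOX factors), TTGGCA (a site of NFI factors), TTCNNNGAA (a STAT site) and TTTGAA (the CHR element of cell cycle genes). Letters are given in the direction of transcription, with matches in capitals. The windows are chr15:8710808-8711057 for *Slc1a3*, chr9:54661886-54662135 for *Acsbg1* and chr7:19699189-19699438 for *Apoe*, all on the minus strand.
Slc1a3: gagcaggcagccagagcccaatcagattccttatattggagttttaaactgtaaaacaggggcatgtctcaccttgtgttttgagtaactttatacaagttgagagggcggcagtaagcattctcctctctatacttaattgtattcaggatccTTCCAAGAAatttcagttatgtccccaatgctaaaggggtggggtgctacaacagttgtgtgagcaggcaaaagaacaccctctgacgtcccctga
Acsbg1: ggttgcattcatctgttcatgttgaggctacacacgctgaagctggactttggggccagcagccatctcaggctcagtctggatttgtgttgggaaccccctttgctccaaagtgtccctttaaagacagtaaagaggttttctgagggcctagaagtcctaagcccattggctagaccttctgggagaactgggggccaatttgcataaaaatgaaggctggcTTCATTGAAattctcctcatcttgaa
Apoe: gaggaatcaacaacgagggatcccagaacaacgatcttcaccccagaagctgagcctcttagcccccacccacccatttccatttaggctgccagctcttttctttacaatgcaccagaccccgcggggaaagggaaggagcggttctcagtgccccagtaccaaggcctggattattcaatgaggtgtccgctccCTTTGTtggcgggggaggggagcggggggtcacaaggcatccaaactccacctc
The STAT letters occurred 1 time in the *Slc1a3* and 1 time in the *Acsbg1* window, and in 7.04% of all 32536 windows of this length. The SOX core occurred 1 time in the *Apoe* window, read on the opposite strand, and in 16.5% of all windows. None of the 3 windows held TTGGCA or TTTGAA, which stood in 12.3% and 15.8% of all windows. A match is a string of letters and not a known binding site. Promoter entries were found for 8 of the 10 genes, the windows of *Slc4a4*, *Slc1a2*, *Glul*, *Gja1* and *Mlc1* held 0 matches, and no entry was matched for *Car2* and *Aqp4*.

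Over all 304 cells, the glutamate transporter gene *Slc1a3* (chromosome 15, 8634124 to 8710764, minus strand, in GENCODE M21 on GRCm38) was found with at least 1 UMI in 97.7% of cells (95% exact binomial interval 95.3% to 99.1%). Such intervals cover counting error only. *Mlc1* (chromosome 15, 88955884 to 88979007, minus strand) was found in 89.1% (85.1% to 92.4%) and *Acsbg1* (chromosome 9, 54604877 to 54661870, minus strand) in 88.5% (84.4% to 91.8%) of cells. The pH genes were detected at like shares, *Car2* (chromosome 3, 14886273 to 14900770, plus strand) in 74.0% (68.7% to 78.9%) and *Slc4a4* (chromosome 5, 88886818 to 89239653, plus strand) in 73.7% (68.4% to 78.5%). *Apoe* (chromosome 7, 19696109 to 19699188, minus strand) was found in 65.5% of cells (59.8% to 70.8%), with up to 53 UMIs in a cell and a variance over mean of 4.29 on plate 1 and 2.92 on plate 2 in cells thinned to 5000 UMIs. Its ratio was the highest of the 10 genes on plate 1, and that of *Slc1a3* on plate 2. The ratio was 2.05 and 3.01 for *Slc1a3*, with up to 62.9 UMIs in a cell, 1.61 and 1.56 for *Car2*, and 0.929 and 0.914 for *Glul*. In 147 cells (48.4%) the *Apoe* value included a part of a UMI, which the counting divided between genes, against 58 cells for *Slc1a3* and 45 for *Gja1*. Thinning rounds such parts up or down at random.

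*Glul* (chromosome 1, 153899944 to 153909723, plus strand) was found in 45.1% (39.4% to 50.8%) and *Slc1a2* (chromosome 2, 102658659 to 102790784, plus strand) in 42.1% (36.5% to 47.9%) of cells. *Gja1* (chromosome 10, 56377330 to 56402513, plus strand) had 40.5 UMIs in all and was found in 4.93% of cells (2.79% to 8.01%). *Aqp4* (chromosome 18, 15389496 to 15410982, minus strand) had 16 UMIs and was found in 4.61% (2.54% to 7.61%). The endothelial genes *Flt1*, *Kdr* and *Pecam1*, which NSPCs should lack, were found in 5.26%, 2.30% and 0.658% of the same cells. The shares of *Gja1* and *Aqp4* lay above *Pecam1* and below *Flt1*. These shares count whole UMIs, and 45 cells held a part of a *Gja1* UMI. By level, *Gja1* was above *Flt1* on both plates, at 14.6 and 11.6 against 12.1 and 10.3 CPM in high PLIN2-GFP NSPCs. In low cells it had 10.6 and 9.33 against 4.36 and 2.33 CPM. With so few UMIs, neither *Gja1* nor *Aqp4* is read as expression here. Neither of them passed the filter on low counts, and the tests below cover the other 8 genes. All 10 are protein coding, and no annotated gene that overlaps one of them is in the count table. In cells thinned to 5000 UMIs, a median of 5 of the 10 genes was detected per cell on either plate, with a range of 0 to 8 over 145 cells on plate 1 and 2 to 9 over 114 cells on plate 2.

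The question of whether these genes follow the cell cycle was asked with the phase that the authors called for each cell with Seurat, whose standard cell cycle gene sets hold none of the 10 genes. The UMIs of each plate and phase were added up, giving 6 sums. The G1 sums held 81 cells (plate 1) and 51 cells (plate 2), the S sums 41 and 36, and the G2/M sums 57 and 38. Values are in CPM, UMI counts scaled to the total of the sum, so a lower value is a smaller share of the counts. Most of the genes were highest in G1 phase. Of the 8 genes tested, 6 were called lower in G2/M than in G1 phase at an adjusted p under 0.1 by edgeR, where 7.38% of the 7667 genes tested were called lower (566 genes, with 718 higher). The median log2 fold change of the 8 was -0.64, and that of all genes tested -0.01. In the same 6 genes, *Slc4a4*, *Slc1a3*, *Slc1a2*, *Mlc1*, *Acsbg1* and *Apoe*, both G1 sums lay above both G2/M sums, a pattern held by 20.8% of all genes tested. In 5 of them, all but *Apoe*, the G1 sums lay above the 4 sums of both other phases, as in 9.99% of all genes.

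*Apoe*, the lipid carrier, differed most. It stood at 504 and 319 CPM in G1 phase, at 391 and 189 CPM in S phase and at 162 and 109 CPM in G2/M phase on plates 1 and 2. Both G2/M sums were below every other sum, and plate 2 was below plate 1 in each phase. *Apoe* fell by 1.63 on the log2 scale from G1 to G2/M (standard error 0.15, adjusted p = 1.02e-09 by edgeR) and fell by 0.60 from G1 to S phase (standard error 0.14, adjusted p = 0.00318). The share of cells with *Apoe* was 72.8% (G1), 75.6% (S) and 64.9% (G2/M) on plate 1, against 56.9%, 58.3% and 57.9% on plate 2. After thinning to 5000 UMIs, these shares became 75.8%, 64.7% and 46.7% on plate 1 and 64.4%, 37.1% and 38.2% on plate 2. Thinning left out cells with fewer UMIs, and depth differed between the phases (medians of 8290, 10994 and 9565 per cell in G1, S and G2/M on plate 1, and of 9825, 15301 and 12902 on plate 2).

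*Acsbg1*, the other lipid gene of the set, had 582 and 631 CPM in G1, 371 and 570 CPM in S and 375 and 437 CPM in G2/M phase on plates 1 and 2. Its G1 sums lay above all 4 others. The log2 fold change was -0.62 in G2/M (standard error 0.12, adjusted p = 0.000237 by edgeR) and -0.45 in S phase (standard error 0.12, adjusted p = 0.00951).

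Of the glutamate genes, both transporters took a smaller share of the counts outside G1 phase. *Slc1a3* had 1539 and 1632 CPM in G1, 1154 and 1349 CPM in S and 1247 and 1173 CPM in G2/M phase. The G1 sums of both plates were again above the other 4, with log2 fold changes of -0.42 in G2/M (standard error 0.08, adjusted p = 0.000369 by edgeR) and -0.41 in S phase (standard error 0.08, adjusted p = 0.000749). *Slc1a2*, the transporter that prevails in mature astrocytes, had 116 and 99.2 CPM in G1, 69.5 and 68.6 CPM in S and 66.3 and 58.1 CPM in G2/M phase. It rested on 284 UMIs in all, and fell by 0.82 on the log2 scale in G2/M (standard error 0.22, adjusted p = 0.011 by edgeR) and fell by 0.71 in S phase (standard error 0.22, adjusted p = 0.0391). Its G2/M call was lost in thinned cells (-0.43, adjusted p = 0.503 by edgeR) and with DESeq2 (adjusted p = 0.482). *Glul*, the enzyme gene, had 88.6 and 43.9 CPM in G1, 59.7 and 66.9 CPM in S and 68.0 and 49.2 CPM in G2/M phase, and the plates went opposite ways. Its log2 fold changes of -0.24 in G2/M (standard error 0.26, adjusted p = 0.65 by edgeR) and -0.12 in S phase (standard error 0.27, adjusted p = 0.858) were within their error.

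The 2 pH genes did not share a pattern. The bicarbonate cotransporter gene *Slc4a4* had 400.1 and 410.0 CPM in G1, 319 and 347 CPM in S and 265 and 201 CPM in G2/M phase. Its sums were ordered G1, S, G2/M on both plates, with a log2 fold change of -0.82 in G2/M (standard error 0.14, adjusted p = 4.93e-05 by edgeR) and one of -0.34 in S phase that was not called (standard error 0.13, adjusted p = 0.107). *Car2*, the carbonic anhydrase gene, had 306 and 244 CPM in G1, 211 and 249 CPM in S and 255 and 267 CPM in G2/M phase. The G1 sums overlapped with those of both other phases, and the S sums lay below the G2/M sums. Neither its log2 fold change in G2/M (-0.13, standard error 0.14, adjusted p = 0.661 by edgeR) nor that in S phase (-0.34, standard error 0.15, adjusted p = 0.171) was called.

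*Mlc1*, the membrane protein of endfeet, had 523 and 532 CPM in G1, 384 and 472 CPM in S and 359.8 and 328 CPM in G2/M phase, ordered G1, S, G2/M on both plates. The log2 fold change was -0.65 in G2/M (standard error 0.12, adjusted p = 0.000185 by edgeR) and -0.37 in S phase (standard error 0.12, adjusted p = 0.0404). *Aqp4* had 7 and 4 UMIs in G1 phase, 1 and 2 in S phase and 1 on each plate in G2/M phase, and *Gja1* had 11 and 10.5, 4 and 4, and 8.5 and 2.5 UMIs, counts too low to show a difference at this depth.

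**Figure D1:**
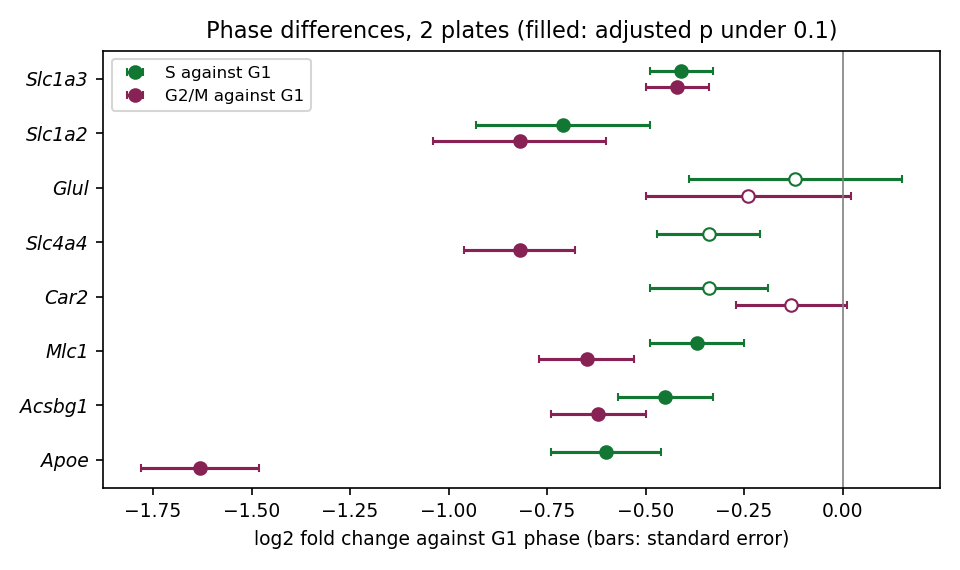
Log2 fold changes of 8 genes in S and in G2/M against G1 phase (x axis) with standard errors, from 6 sums of 2 plates; filled points have an adjusted p under 0.1 by edgeR. Every point lies below 0, *Apoe* in G2/M is farthest at -1.63, and *Glul* and *Car2* are open in both phases.

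For S phase, 5 of the 8 genes were called lower than in G1, *Slc1a3*, *Slc1a2*, *Mlc1*, *Acsbg1* and *Apoe*, against 5.14% of the genes tested (394 genes, with 584 higher). The median of the 8 was -0.39, and that of all genes -0.02. These values are shares of the counts. In UMIs per cell, *Slc1a3*, *Slc1a2*, *Mlc1* and *Acsbg1* were lower in S than in G1 phase on plate 1 but higher on plate 2. There, *Slc1a3* had 21.8 in S and 16.8 in G1 phase, and *Acsbg1* had 9.22 and 6.49. *Apoe* was lower in S phase on both plates. In G2/M phase, the 6 genes called lower also had fewer UMIs per cell than in G1 phase on both plates. The S phase calls depended on the plate block: without it 0 of the 8 were called, where 1.30% of all genes were called lower, with an adjusted p from 0.113 (*Slc1a3*) to 0.273 (*Mlc1*) for these 5, while the 6 calls in G2/M were all made without it too, where 2.96% of genes were called lower. In the 33 cells with under 10% mitochondrial counts, none of which was a G1 cell of plate 1, 0 of the 8 genes were called in either phase by edgeR, and *Apoe* had a log2 fold change of 0.26 in G2/M and 0.86 in S phase. In thinned cells, 3 genes were called in S phase, *Slc1a3*, *Apoe* and *Slc4a4* (2.87% of all genes), and with DESeq2 *Slc1a3* alone (0.457%). In G2/M phase both called 5 of the 6, all but *Slc1a2*, where 5.10% of all genes were called lower in thinned cells and 1.13% with DESeq2.

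The categories were spread over the phases unequally, so the levels were also taken per plate, category and phase. *Apoe*, *Slc4a4*, *Slc1a3*, *Slc1a2*, *Mlc1* and *Acsbg1* were each lower in G2/M than in G1 phase in 4 of 4 pairs of one plate and category. *Apoe* in low PLIN2-GFP NSPCs had 457 CPM in G1, 282 CPM in S and 146 CPM in G2/M phase on plate 1 and 324, 92.3 and 75.6 CPM on plate 2. In high PLIN2-GFP NSPCs it had 559, 465 and 169.6 CPM on plate 1 and 314, 275 and 149.8 CPM on plate 2. *Car2* was lower in G2/M than in G1 phase in 3 of 4 pairs, the exception being high cells of plate 2, with 290.2 CPM in G1 and 409 CPM in G2/M phase. With category as a further covariate over these 12 sums, edgeR called 6 of the 8 genes lower in G2/M and 7 in S phase. Of all genes, 11.1% and 7.65% were called lower. The 12 sums come from the same 2 plates and are not 12 replicates, so the added S phase calls are not read as stronger evidence.

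**Figure D2:**
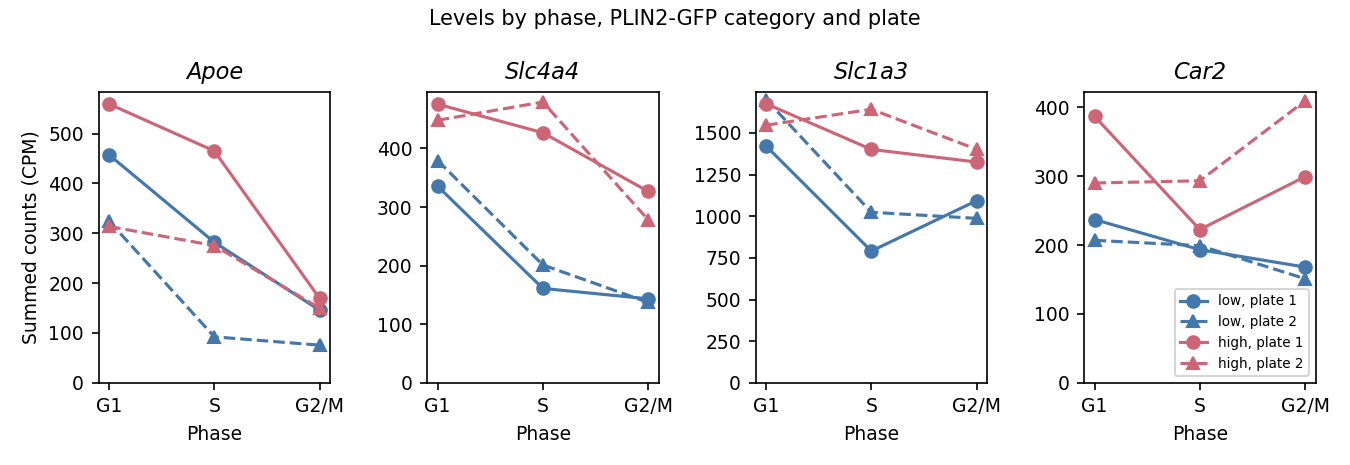
Levels (y axes, CPM from 0) of *Apoe*, *Slc4a4*, *Slc1a3* and *Car2* by phase (x axes), with a line for each plate and PLIN2-GFP category. *Apoe* and *Slc4a4* are lower in G2/M than in G1 on all 4 lines, and *Car2* rises to 409 CPM in high cells of plate 2.

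The comparison of high with low PLIN2-GFP NSPCs asks which genes go with LD content. As the 10 genes were listed with its results known, their values are a description with no test. Of the 8 genes that passed the filter, 5 were called, all 5 higher with high GFP, where 0.884% of the 8372 genes tested were called higher. Nothing is read from this count, since the same contrast chose the genes, and without the plate block edgeR called 0 of the 8 and 0 of all genes higher (193 at an unadjusted p under 0.05). The median log2 fold change of the 8 was 0.31, against -0.00 over all genes.

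*Slc4a4* had 405 and 409 CPM in high and 246 and 239.8 CPM in low PLIN2-GFP NSPCs on plates 1 and 2, a log2 fold change of 0.67 (standard error 0.12). *Car2* had 309 and 328 CPM in high and 209 and 185 CPM in low cells (0.62, standard error 0.13). For both pH genes the high sums lay far above the low ones, and the plates were close to each other. *Mlc1* had 478 and 522 CPM in high and 378 and 374 CPM in low cells (0.34, standard error 0.11). *Acsbg1* had 499 and 667 CPM against 413 and 437 CPM (0.38, standard error 0.10), and *Slc1a3* had 1466 and 1540.2 CPM against 1192 and 1240.3 CPM (0.24, standard error 0.08). In these 5 genes the high and low sums did not overlap, as in 20.5% of all genes tested in this direction. *Apoe* was higher in high cells on both plates, at 382 and 249 CPM against 338 and 165 CPM (0.28, standard error 0.12), but plate 1 was above plate 2 by more than the categories differed. *Glul* had 82.1 and 57.8 CPM in high and 64.8 and 50.2 CPM in low cells (0.22, standard error 0.22), and *Slc1a2* was higher in high cells on plate 2 alone, at 81.6 and 93.4 CPM against 96.0 and 58.3 CPM (0.11, standard error 0.20). *Gja1* stood at 14.6 and 11.6 CPM in high and 10.6 and 9.33 CPM in low cells, and *Aqp4* at 4.86 and 5.14 against 4.99 and 3.50 CPM, on 15 UMIs or fewer in each sum.

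**Figure D3:**
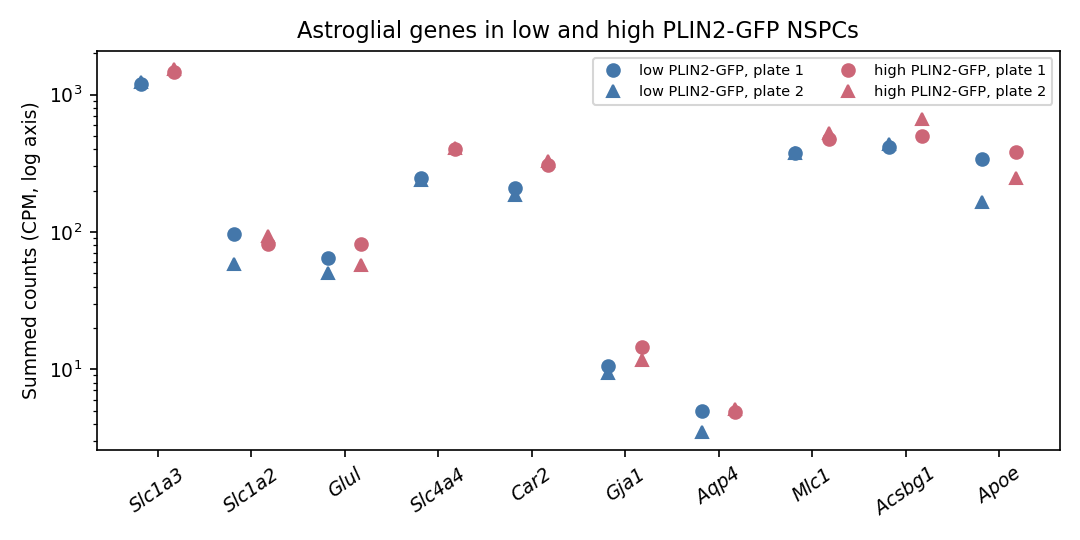
Levels of the 10 genes (y axis, CPM on a log axis) in the sums of low (blue) and high (red) PLIN2-GFP NSPCs of plate 1 (circles) and plate 2 (triangles). High and low points separate for *Slc4a4* (405 and 409 against 246 and 239.8 CPM) and *Car2*, and overlap for *Slc1a2*, *Glul* and *Apoe*.

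Within phases, *Slc4a4*, *Car2* and *Acsbg1* were higher in high PLIN2-GFP NSPCs in 6 of 6 pairs of one plate and phase, *Slc1a3*, *Slc1a2*, *Mlc1* and *Apoe* in 5, and *Glul*, *Gja1* and *Aqp4* in 4. *Slc1a3* had 1675 CPM in high and 1421 CPM in low cells in G1 phase of plate 1, but 1546 and 1700.3 CPM on plate 2. In S phase it had 1401 and 791 CPM on plate 1 and 1642 and 1024 CPM on plate 2. The gap between categories for *Slc1a3* was thus wider in S than in G1 phase on both plates, and a test of that difference was not made. *Slc4a4* in S phase had 427 CPM in high and 161 CPM in low cells on plate 1, and 479 and 201 CPM on plate 2. Its low cells fell to 143 and 137 CPM in G2/M phase, against 327 and 279 CPM in high cells. In cells of G1 phase alone, the log2 fold changes between high and low cells were 0.31 for *Slc4a4*, 0.52 for *Mlc1*, -0.01 for *Slc1a3* and -0.24 for *Slc1a2*.

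The deposited annotation splits the cells into 2 clusters, and cluster 0 held 72.6% and 75.5% of high and 32.6% and 31.9% of low PLIN2-GFP NSPCs on plates 1 and 2. The clusters were made from the genes of these cells, so the values below are a description. All 8 genes that passed the filter were higher in cluster 0 on both plates, as were 36.1% of all genes. *Slc4a4* had 418 and 462 CPM in cluster 0 and 249.7 and 159.5 CPM in cluster 1. *Car2* had 335 and 366 CPM in cluster 0 and 194 and 126 CPM in cluster 1. *Slc1a3* had 1593 and 1690.0 CPM against 1091 and 1036 CPM. These gaps were wider than those between the GFP categories. In 7 of the 8 genes the clusters' sums did not overlap (23.2% of all genes), the exception being *Apoe*, with 444 and 264 CPM in cluster 0 and 279 and 138 CPM in cluster 1. *Gja1* had 15.1 and 9.23 CPM against 10.5 and 11.7 CPM, with no shared direction.

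Cell by cell, the 10 genes together took a small share of the mRNA. In cells thinned to 5000 UMIs, which left out 45 shallower cells, their summed count had a median of 16 UMIs (range 0 to 50, 145 cells) on plate 1 and 15 UMIs (2 to 42, 114 cells) on plate 2. By phase, the median on plate 1 was 19 (G1), 14 (S) and 13 (G2/M), while plate 2 had 18, 13 and 11. By category, the high cells had 17 and 16 and the low cells 14 and 12 on the 2 plates. By cluster, it was 18.5 in cluster 0 and 12 in cluster 1 on plate 1, and 20 and 10 on plate 2. The cells of a group spread widely around these medians, from 4 to 50 UMIs in G1 phase and from 0 to 27 in G2/M phase on plate 1.

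**Figure D4:**
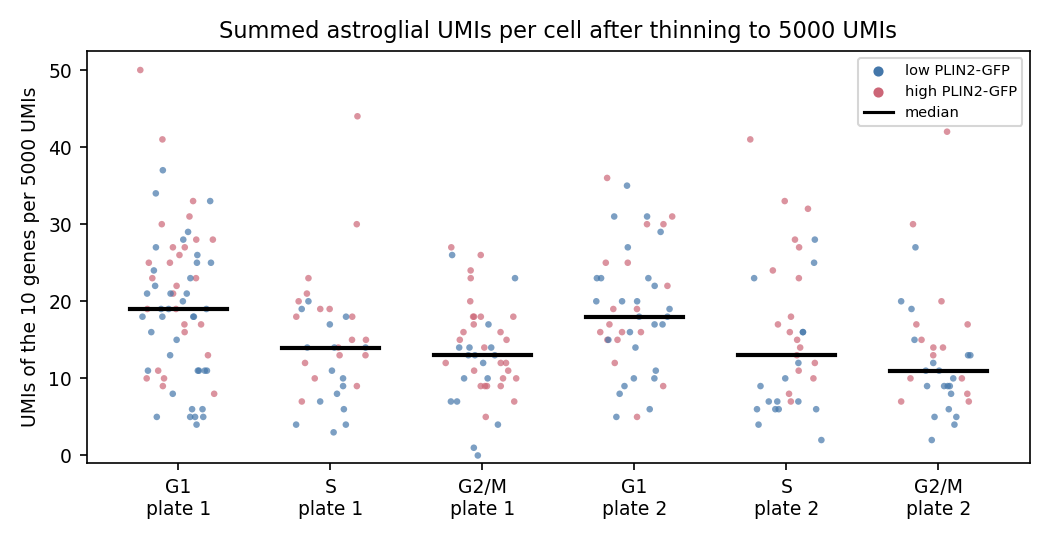
Summed UMIs of the 10 genes per cell after thinning to 5000 UMIs (y axis) by phase and plate (x axis), with 1 point per cell, red for high and blue for low PLIN2-GFP, and bars at the medians. The medians are 19, 14 and 13 in G1, S and G2/M on plate 1 and 18, 13 and 11 on plate 2, and the points of all groups overlap.

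Correlations between the genes were taken over cells within each plate for the 8 genes found in at least 40% of cells, and describe these cells only, which share a library. Over all UMIs, the median Spearman correlation of the 28 pairs was 0.255 on plate 1 (179 cells) and 0.270 on plate 2 (125 cells), and 28 of 28 pairs were above 0 on both plates. A cell's total count moves all genes together, and after thinning the medians were 0.165 and 0.155, with 27 and 25 pairs above 0. The pair of *Slc4a4* and *Slc1a3* was the highest on both plates, at 0.43 and 0.41 after thinning (Pearson 0.31 and 0.31). *Mlc1* and *Apoe* had 0.39 and 0.22, *Slc1a3* and *Apoe* 0.32 and 0.31, and *Slc4a4* and *Car2*, the pH genes, 0.13 and 0.15. *Slc1a3* and *Slc1a2*, the glutamate transporters, had 0.18 and 0.14. The lowest pairs were *Slc1a2* with *Acsbg1* at -0.02 on plate 1 and *Car2* with *Mlc1* at -0.07 on plate 2.

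**Figure D5:**
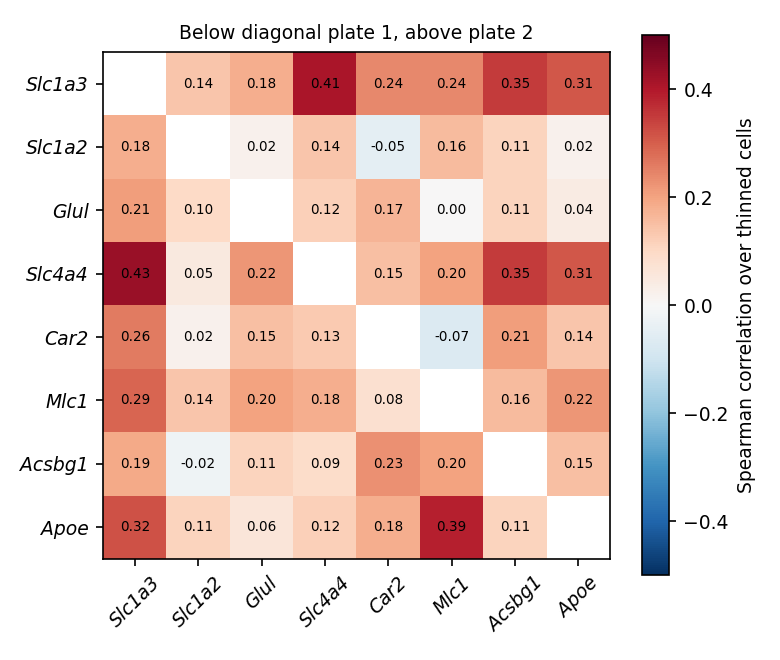
Spearman correlations over thinned cells for pairs of 8 genes, with plate 1 below and plate 2 above the diagonal and colour from blue (negative) to red (positive). *Slc4a4* with *Slc1a3* is the highest on both plates (0.43 and 0.41), and pairs with *Slc1a2* or *Glul* reach at most 0.22.

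Among 1115 other genes found in at least 50% of thinned cells, genes whose level ran close to the summed 10 genes over 259 cells were *Igfbp2* (Spearman 0.56), *Pea15a* (0.51), *Sulf2* (0.42) and *Atp1b2* (0.42), where the median gene had -0.00. *Igfbp2* encodes a binding protein of insulin-like growth factors, *Atp1b2* a glial subunit of the sodium pump, and *Pea15a* a phosphoprotein abundant in astrocytes. On the plates taken singly, *Igfbp2* had 0.62 and 0.51. These correlations pool both categories and all phases, and the 10 genes were listed with the category results known. The paper reports *Igfbp2* as higher in high PLIN2-GFP NSPCs, and the part of the category in its correlation was not tested.

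Other astroglial genes were taken from a list of 30, of which 28 were in the table. In G2/M against G1 phase, 12 of the 22 tested were called lower and 0 higher (7.38% of all genes tested were lower and 9.36% higher), with a median of -0.55. Without the plate block, 8 were lower, beside 2.96% of all genes. *Sparc*, a secreted matrix protein, fell by 1.17 on the log2 scale (adjusted p = 5.95e-07 by edgeR), from 429 and 256 CPM in G1 to 194 and 117 CPM in G2/M phase. *Ttyh1*, a membrane protein of neural progenitors, changed by -1.22 (adjusted p = 2.84e-06) and *Kcnj10*, the potassium channel Kir4.1, by -1.19 (adjusted p = 3.63e-05). In S phase, 12 of 22 were lower and 0 higher (5.14% of all genes were lower and 7.62% higher). *Mt1*, *Ttyh1*, *Kcnj10* and *Atp1b2* were the clearest at -0.62, -1.04, -1.02 and -0.41. Without the block 3 were called lower, beside 1.30% of all genes, *Atp1b2* not among them (adjusted p = 0.167 by edgeR). In high against low PLIN2-GFP NSPCs, 4 of 24 were called higher, among them *Aldoc* (0.38), *Slc6a11* (0.56) and *Cpe* (0.39), beside 0.884% of all genes. *Mt1*, a metallothionein, was lower (-0.34), as were 1.25% of all genes. The list was chosen with earlier results of these data known, and nothing is read from these counts. None of the 5 called genes was called without the block.

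Among 15 tested genes of glutamate and amino acid transport and metabolism, 4 were lower and 0 higher in G2/M than in G1 phase, beside 7.38% lower over all genes. *Abat*, the enzyme that degrades GABA, changed by -1.58 on the log2 scale (adjusted p = 0.00315 by edgeR) and *Slc38a3*, a glutamine transporter, by -0.77 (adjusted p = 0.0033). *Glud1* and *Slc1a4* had -0.56 and -0.88 (adjusted p = 0.0956 and 0.0978), and were not called without the block (adjusted p = 0.398 and 0.221). In S phase, *Abat* (-1.51), *Slc38a3* (-0.59) and *Aldh5a1* (-1.16) were lower and the glutamine transporter *Slc38a1* was higher (0.72), beside 5.14% lower and 7.62% higher over all genes. Without the block, *Abat* was called (adjusted p = 0.0585 by edgeR) and *Slc38a3*, *Aldh5a1* and *Slc38a1* were not (adjusted p = 0.157, 0.188 and 0.242). *Slc38a1* was also the 1 gene of this list called between categories, lower in high PLIN2-GFP NSPCs (-0.95, adjusted p = 0.00895, and 0.682 without the block), with 49.6 and 30.2 CPM in high and 80.0 and 69.4 CPM in low cells.

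Of 8 tested genes of acid-base transport, 0 were called between categories or in S phase by edgeR, and *Bsg*, the chaperone of lactate transporters, was lower in G2/M phase (-0.49, adjusted p = 0.049, and 0.267 without the block), a share of 1 in 8 beside 7.38% of all genes. Of the gap junction, water and membrane partner genes, 7 were tested by phase. Of these, *Atp1b1*, a sodium pump subunit, was lower in G2/M (-0.91, adjusted p = 0.0139 by edgeR), a share of 1 in 7 beside 7.38% of all genes. Of 9 tested by category, 0 were called. Acyl-CoA synthetases and genes that handle apolipoproteins went both ways in G2/M phase. *Abca1*, which loads cholesterol onto apolipoproteins, fell by 2.01 (adjusted p = 1.16e-06 by edgeR), from 125 and 111 CPM in G1 to 39.8 and 18.9 CPM in G2/M phase, next to the fall of *Apoe*. *Acsl3*, an acyl-CoA synthetase of LDs and the endoplasmic reticulum, was higher by 0.61 (adjusted p = 0.013), opposite to *Acsbg1*. In S phase, *Abca1* (-0.66) and *Vldlr* (-0.90) were lower among 7 tested, beside 5.14% of all genes. Neither was called without the block (adjusted p = 0.217 and 0.193 by edgeR), and by category 0 of 9 were called.

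Of 3 oligodendrocyte lineage markers tested by phase, *Olig1* and *Olig2* were called lower than in G1 phase in both other phases. Over all genes, 7.38% were lower in G2/M and 5.14% in S phase. *Olig1* changed by -0.79 (adjusted p = 2.14e-10 by edgeR) and *Olig2* by -0.54 (adjusted p = 2.72e-05) on the log2 scale in G2/M, and by -0.32 and -0.41 in S phase, where neither was called without the block (adjusted p = 0.198 and 0.163). The 4 oligodendrocyte lineage markers in the table summed to 4252 and 4057 CPM in G1, 3478 and 3473 CPM in S and 2586 and 2674 CPM in G2/M phase, and the 10 astroglial genes to 4082 and 3939, 2971 and 3321, and 2814 and 2629 CPM. Of 7 NSPC markers, *Vim* was lower (-0.29) and *Pax6* higher (0.84) in G2/M phase, beside 7.38% and 9.36% of all genes. In S phase, *Fabp7* was lower (-0.22) and *Nes* higher (0.44), beside 5.14% and 7.62% of all genes. *Vim* was also lower with high than with low GFP (-0.22), as were 1.25% of all genes. Calls on 1 gene in 7 are not read as a result about these markers. Without the block 0 of the 7 were called in any of these comparisons, with an adjusted p from 0.17 (*Pax6*) to 0.998 (*Vim* by category) for those named. The 7 summed to 6898 and 7108 CPM in G1 and 6223 and 6474 CPM in G2/M phase, a narrower range than that of the astroglial genes. Most of this sum was *Vim* and *Fabp7*, at 2901 and 3216 CPM in G1 phase of plate 1, so it says little about the other markers. The 2 neuronal and 1 ependymal markers tested were not called in any of the comparisons. The median share of mitochondrial counts was 14.0% and 13.8% for G1 cells, 11.8% and 11.3% for S phase and 11.9% and 11.8% for G2/M, and the part of these shares and of depth in the phase differences was not tested beyond the thinned and filtered cells.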

How the data were processed

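The authors assigned the reads with Salmon, and alevin is also named in the submitters' processing notes, to GRCm38, and deposited estimated counts (expected counts) of UMIs per gene and cell, without normalization. Versions and the annotation release are not given in the sources used here. They kept cells on mitochondrial share and doublet detection, so no doublet caller was run here. Their deposited per-cell table holds counts of detected genes, fractions and percentages of mitochondrial counts, doublet and cell cycle scores, plate, category, phase and cluster. Both 384-well plates are in 1 table without cell names, so columns were joined to cells by total and number of genes, and 0 were left unjoined.

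Counts were summed per plate and category or phase and rounded. edgeR 4.0.16 in R 4.3.3 (TMM, filter on low counts, quasi-likelihood test) was fitted over all genes with the plate as block. Calls are at a Benjamini-Hochberg adjusted p under 0.1. Standard errors come from F, as the size of a log2 fold change over the root of its F. The block leaves 1 residual degree of freedom for categories and 2 for phases. Nothing says that the plates are separate cultures. With the plate as block, p-values rest on how far a difference varies between these 2 plates, with dispersion estimates shared across genes. That variation may be only technical. The sums of a plate come from that plate, and their deviations from the group means had correlations of 0.298 (categories) and 0.197 to 0.225 (phases). For correlations with the summed genes, 10 CPM was added before taking log2. Thinning drew 5000 UMIs per cell (numpy 2.4.6). On data simulated from the phase sums (7364 genes), the G2/M test recovered 16.7% of genes changed 1.5-fold and 48.9% of those changed 2-fold, with 3 false calls. The simulated data had no plate effect and the same dispersion for every gene, so they do not show how many calls in the real data are false.

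The 10 genes and all lists were chosen with earlier results of these data known. The genes named are the 10, at most 4 called genes per list, direction and comparison with the smallest p, and the 5 genes closest to the summed 10, and some of these are not reported here. Genes of other cell types named only for their detection were taken from the marker lists. Promoter letters are from RefSeq. Alternatives were no block, DESeq2 1.42.0, other size factors, no filter, thinned cells, cells under 10% or (added after seeing the data) under 20% mitochondrial counts, G1 cells, 12 sums and each plate alone. The list of well barcodes was not used.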

Additional observations from a re-analysis of the deposited data

How the results depend on the processing

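Over the 9 alternatives with a test, the log2 fold changes of the 6 genes called lower in G2/M phase stayed below 0, except in the 33 cells with under 10% mitochondrial counts (3 of them in G1 phase), where *Slc4a4* had 0.14 and *Apoe* 0.26. There, *Slc1a2*, *Mlc1*, *Acsbg1* and *Apoe* had 0.91, 0.0041, 0.10 and 0.86 in S phase, and 0 genes of the set were called in either phase by edgeR. The S phase count of 5 genes became 0 without the plate block, 1 with DESeq2 and 3 in thinned cells. In G1 cells, the log2 fold change of *Slc1a3* between categories was -0.012. The limit of 20% mitochondrial counts left all calls on the set in place and added *Slc4a4* in S phase (-0.36).

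Genes called higher and lower by category (74 and 105) became 0 and 1 without the block (193 and 175 at an unadjusted p under 0.05), 4 and 8 with DESeq2, 148 and 81 with library size only, 30 and 29 in thinned cells, 8 and 28 in G1 cells and 0 and 0 in cells under 10% mitochondrial counts (85 and 78 unadjusted, by edgeR). For S phase (584 and 394) they became 347 and 100 without the block, 175 and 35 with DESeq2, 691 and 250 with library size only, 201 and 123 in thinned cells and 9 and 4 under 10%. For G2/M phase (718 and 566) they became 435 and 227, 235 and 87 with DESeq2, 316 and 219 in thinned cells and 55 and 13 under 10%. Without the block no gene of the set was called by category, and its G2/M calls did not change. Thinning moved the median correlation from 0.262 to 0.160 and the median detection from 69.6% to 59.1%. With 1 plate left out, no test was made, and the median log2 ratio of cluster 1 to cluster 0 (-0.77) ranged from -0.96 to -0.58. The causes were not tested. *Gja1* and *Aqp4* rested on 40.5 and 16 UMIs, too few for a reading here. Parts of UMIs stood in 45 cells for *Gja1* and in 0 for *Aqp4*.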
